A study of Mus musculus with 2 samples.

Results

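The DNA methylation machinery of mouse primordial germ cells (PGCs), from which eggs and sperm descend, was described through 8 genes chosen by symbol. They were the DNA methyltransferases Dnmt1, Dnmt3a and Dnmt3b, the paralogues Uhrf1 and Uhrf2, the deubiquitinase Usp7, and the dioxygenases Tet1 and Tet2. All 8 had a row among the 18877 genes of the table. RNA-seq was performed on 2 biological replicates of 1 group, untreated PGCs of the C57BL6 strain at embryonic day 9.5, for which the labels name an SSEA1 antibody, directed at a carbohydrate on the PGC surface. The methods state that the embryos were female, that cells were sorted either by flow cytometry for CD61 and SSEA1 or with SSEA1 magnetic beads, and that cDNA was made by Smart-seq2, whereas the sample labels name a NEBNext library kit. No library of another stage or cell type was analysed here, so no test between groups was possible, and each value below describes the 2 libraries.

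DNA methylation in mammals is placed on the cytosine of CpG sites. Dnmt3a and Dnmt3b are the de novo methyltransferases, which write new methylation, and Dnmt1 copies existing methylation onto the new strand after replication. Dnmt1 depends on Uhrf1, a ring-finger protein that binds hemimethylated DNA and ubiquitinates histone H3. Uhrf2 has a similar domain structure but does not replace Uhrf1 in this role, and Usp7 removes ubiquitin and stabilises both Dnmt1 and Uhrf1. The Tet enzymes oxidise 5-methylcytosine, a first step of its removal. PGCs lose most of their DNA methylation while they migrate and settle in the gonads, which makes the balance of these transcripts at embryonic day 9.5 of interest.

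Values are TPM as the authors deposited them, a relative abundance per base of gene length. The whole reads behind each value were recovered from the table, 15912470 reads in replicate 1 and 5458687 in replicate 2, and the intervals in brackets are exact 95% Poisson intervals that cover counting error only. Markers of PGCs and of other cells were examined first. All 11 PGC markers were at 1 TPM or more in each library, a limit met by 60.0% of all genes, with sums of 26544 and 27096 TPM. Most of each sum came from Dppa5a (20839 and 21320 TPM) and Dppa3 (5013 and 5075 TPM). The lowest of the 11 was the pluripotency factor Pou5f1 at 1.54 and 1.46 TPM, below the median gene of each library (2.71 and 2.61 TPM). Of the markers of other cells, erythroid transcripts were abundant, with 6 of 7 genes at 1 TPM or more in each library and sums of 4002 and 3780 TPM, and their part in the results below was not tested. The sums were 19.4 and 9.53 TPM for macrophage markers (3 of 4 genes), 12.9 and 11.0 TPM for endothelial markers (1 of 5 genes), 2.37 and 3.95 TPM for mesenchymal markers (1 of 5 genes), 3.91 and 3.99 TPM for gonadal epithelial markers (2 of 5 genes), 6.41 and 7.05 TPM for neural markers (3 of 3 genes) and 0 and 0.505 TPM for gut endoderm markers (0 of 2 genes). Lum and Foxa1 were at 0 in both libraries, C1qb, Emcn and Nr5a1 at 0 in replicate 2, and Foxa2 at 0 in replicate 1. Against the description as female, the Y-linked genes Ddx3y (7.32 and 5.35 TPM) and Uty (1.47 and 1.13 TPM) were detected in both libraries, and no result below could be given without them, because both libraries hold them.

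With the deposited lengths, the 8 genes fell into an upper and a lower set of 4. Dnmt1, Tet1, Usp7 and Uhrf2 ranged from 11.8 to 19.11 TPM over both libraries, and Dnmt3a, Uhrf1, Dnmt3b and Tet2 from 0.437 to 3.10 TPM. The lowest value of the upper set was 3.80 times the highest of the lower set with the deposited lengths. It was 2.88 times when reads were divided by the longest coding transcript and 1.51 times when divided by the longest coding sequence. With coding sequence, Dnmt1 was 1.53 and 2.07 times Dnmt3a, whereas Dnmt3a was 4.85 and 3.39 times Uhrf1. Dnmt3a was then nearer to the upper set than to the rest of the lower set. The upper set was above the median gene in both libraries (2.71 and 2.61 TPM), Dnmt3a was above it in replicate 1 only, and the other 3 were below it in both. At a limit of 1 TPM, 6 of 8 genes were detected in both libraries, compared with 60.0% of all genes in the table. Every one of the 8 genes had reads in both libraries, as did 15301 of the 18877 genes in the table. The 8 genes held 7164 reads in all in replicate 1 and 2073 in replicate 2. In bulk RNA, fewer cells that express a gene and less RNA per cell cannot be told apart.

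**Figure D1:**
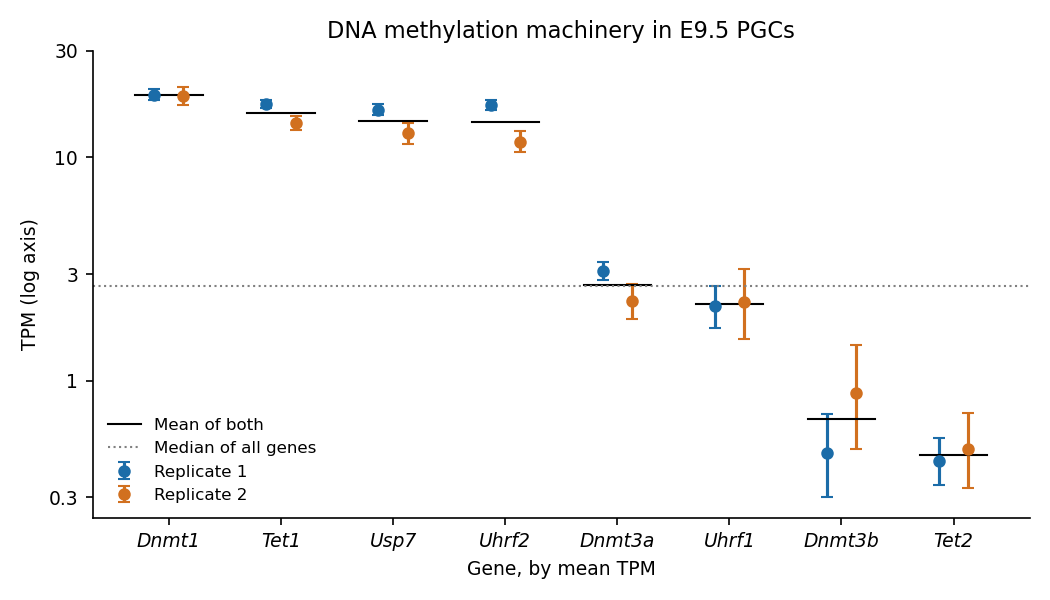
TPM (log axis) of the 8 genes in E9.5 PGCs, ordered by mean TPM. Points are the 2 libraries, bars are exact 95% Poisson intervals of the recovered reads, black lines are means and the dotted line is the median of all genes. Dnmt1, Tet1, Usp7 and Uhrf2 lie between 11.8 and 19.11 TPM and the other genes at or below 3.10 TPM.

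Dnmt1, the maintenance methyltransferase (chromosome 9, 20907209 to 20959888, GRCm38), was the most abundant of the 8 on the deposited scale. It was at 19.11 TPM in replicate 1 (18.1 to 20.2 TPM, 1340 reads) and 18.9 TPM in replicate 2 (17.2 to 20.6 TPM, 465 reads), a mean of 19.0 ± 0.180 TPM (SD, n = 2), with 3523 genes of the table at a higher mean. Both libraries gave nearly the same level. Dnmt3a (chromosome 12, 3806007 to 3914443) was at 3.10 TPM (2.83 to 3.38 TPM, 490 reads) and 2.26 TPM (1.89 to 2.70 TPM, 126 reads). Dnmt3b (chromosome 2, 153649450 to 153687730) was at 0.474 TPM (0.30 to 0.711 TPM) and 0.879 TPM (0.492 to 1.45 TPM). The value of Dnmt3b rested on 23 and 15 reads, the fewest of the 8 genes in each library.

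Of the summed TPM of the 3 methyltransferases, Dnmt1 held 84.3% in replicate 1 and 85.7% in replicate 2, Dnmt3a 13.7% and 10.3%, and Dnmt3b 2.09% and 3.99%. The maintenance enzyme was thus ahead of each de novo enzyme in both libraries. Dnmt1 was 6.17 times Dnmt3a in replicate 1 (exact binomial 95% interval 5.56 to 6.86) and 8.33 times in replicate 2 (6.82 to 10.2). Dnmt3a was 6.54 times Dnmt3b in replicate 1 (4.31 to 10.4) and 2.58 times in replicate 2 (1.5 to 4.74). The direction was the same in both libraries, while the step between the de novo enzymes was larger in replicate 1.

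Uhrf1 and Uhrf2, which encode proteins of the same family, were on opposite sides of the gap. Uhrf1 (chromosome 17, 56303321 to 56323486) was at 2.15 TPM (1.72 to 2.65 TPM, 87 reads) in replicate 1 and 2.25 TPM (1.54 to 3.17 TPM, 32 reads) in replicate 2. Uhrf2 (chromosome 19, 30030513 to 30093722) was at 17.1 TPM (16.2 to 18.0 TPM, 1398 reads) and 11.8 TPM (10.5 to 13.1 TPM, 338 reads). The libraries did not overlap between the paralogues. Uhrf1 was at 0.126 times the level of Uhrf2 in replicate 1 (0.0999 to 0.156) and 0.191 times in replicate 2 (0.129 to 0.275). The cofactor Uhrf1 was also far below its client enzyme, since Dnmt1 was 8.89 times Uhrf1 in replicate 1 (7.16 to 11.2) and 8.39 times in replicate 2 (5.86 to 12.4). Usp7 (chromosome 16, 8689595 to 8792308) was at 16.3 TPM (15.4 to 17.3 TPM, 1207 reads) and 12.8 TPM (11.5 to 14.3 TPM, 333 reads). The deubiquitinase exceeded Uhrf1 by 7.61 times in replicate 1 (6.12 to 9.57) and 5.71 times in replicate 2 (3.96 to 8.48).

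Tet1 and Tet2 were on opposite sides of the gap as well. Tet1 (chromosome 10, 62804570 to 62908996) was at 17.3 TPM (16.7 to 18.0 TPM, 2549 reads) in replicate 1 and 14.2 TPM (13.2 to 15.3 TPM, 736 reads) in replicate 2. Tet2 (chromosome 3, 133463679 to 133545139) was at 0.437 TPM (0.340 to 0.551 TPM, 70 reads) and 0.496 TPM (0.330 to 0.718 TPM, 28 reads), and was not separated from Dnmt3b beyond counting error in either library. Tet1 was thus 39.7 times Tet2 in replicate 1 (31.3 to 51.1) and 28.7 times in replicate 2 (19.7 to 43.5). Of the TPM of both Tet genes, Tet1 held 97.5% and 96.6%. Tet3, the remaining member of the family, was not analysed here.

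The paralogue pairs with opposite levels are shown by their promoter sequences, because CpG sites are what these enzymes act on. Each window runs from 250 bases before to 50 bases after a transcription start of RefSeq on GRCm38.p6, which can differ from the GENCODE start, and is printed 5′ to 3′ on the strand of the gene with the CpG sites in capitals. All 8 genes had a window, 13 windows in all, and the one with the most CpG sites is given for each gene.
Uhrf1 (chr17:56304063-56304362, plus strand): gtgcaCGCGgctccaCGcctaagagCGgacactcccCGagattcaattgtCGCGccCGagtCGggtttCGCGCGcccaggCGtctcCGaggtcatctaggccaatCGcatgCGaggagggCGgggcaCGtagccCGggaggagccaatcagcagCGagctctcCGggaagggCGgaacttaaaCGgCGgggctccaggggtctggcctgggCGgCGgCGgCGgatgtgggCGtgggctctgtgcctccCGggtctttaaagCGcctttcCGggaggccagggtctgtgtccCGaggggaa
Uhrf2 (chr19:30030263-30030562, plus strand): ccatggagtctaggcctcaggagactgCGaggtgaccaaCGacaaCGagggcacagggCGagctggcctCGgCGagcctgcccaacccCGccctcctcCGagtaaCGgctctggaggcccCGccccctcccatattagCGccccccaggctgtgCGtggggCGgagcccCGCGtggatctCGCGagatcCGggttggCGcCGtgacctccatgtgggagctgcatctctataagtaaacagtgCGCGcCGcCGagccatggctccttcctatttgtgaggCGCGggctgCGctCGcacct
Tet1 (chr10:62887275-62887574, minus strand): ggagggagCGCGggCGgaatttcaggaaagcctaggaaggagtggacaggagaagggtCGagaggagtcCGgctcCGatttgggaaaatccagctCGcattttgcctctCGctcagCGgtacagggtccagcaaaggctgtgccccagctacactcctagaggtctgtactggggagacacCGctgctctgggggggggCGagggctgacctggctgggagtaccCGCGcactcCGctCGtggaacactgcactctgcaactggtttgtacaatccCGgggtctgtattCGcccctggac
Tet2 (chr3:133544341-133544640, minus strand): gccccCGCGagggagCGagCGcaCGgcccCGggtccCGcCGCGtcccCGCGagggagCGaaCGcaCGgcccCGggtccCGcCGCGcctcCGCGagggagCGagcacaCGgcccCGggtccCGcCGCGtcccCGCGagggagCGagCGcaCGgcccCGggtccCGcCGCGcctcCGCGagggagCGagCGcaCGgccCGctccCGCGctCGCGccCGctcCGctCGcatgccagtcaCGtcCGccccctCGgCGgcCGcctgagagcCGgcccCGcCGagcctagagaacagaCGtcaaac

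The richest window of Uhrf1 held 33 CpG sites and that of Uhrf2 held 28, compared with a median of 7 over 32851 windows of the same length. That median is over single windows and not over the richest window of each gene, so the measures are unlike. The other windows held 12 sites for Uhrf1, 12 and 2 for Dnmt1, and 46 and 18 for Dnmt3a. The window of Tet2 held 57 CpG sites, more than in 99.8% of all windows, and that of Tet1 held 17. The window of Usp7 held 63 CpG sites, those of Dnmt3a 47, Dnmt1 33 and Dnmt3b 30. The 2 genes with the most CpG sites, Usp7 and Tet2, were thus in the upper and in the lower set, as the plot of CpG sites per window shows. The windows of Tet1, Usp7 (chr16:8738293-8738592) and Dnmt1 lie well inside the gene spans given above, away from the outermost start. Which starts these cells use was not examined, so the counts may not compare like promoters.

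**Figure D2:**
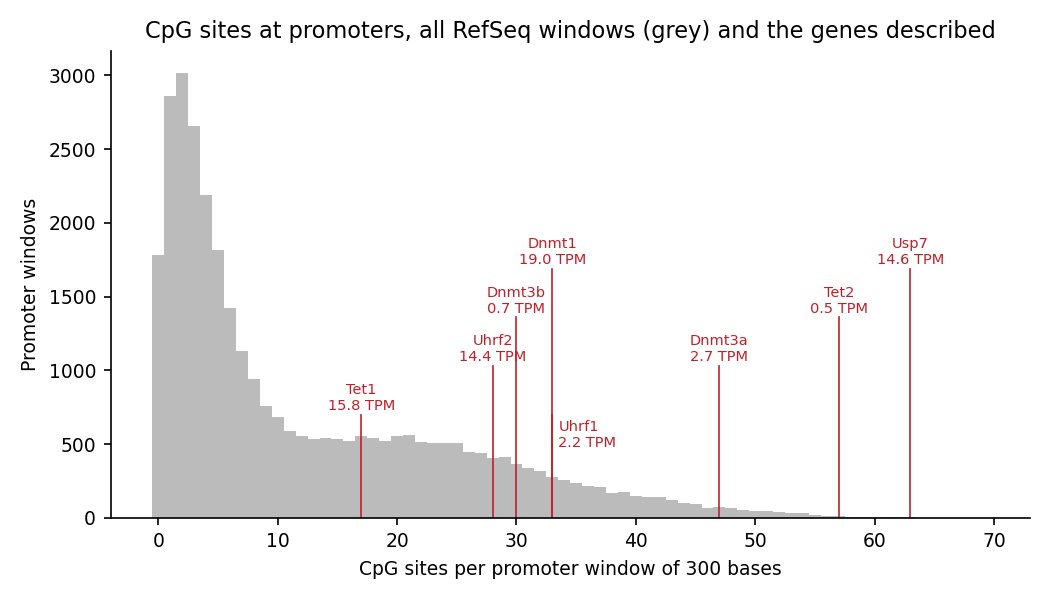
Number of RefSeq promoter windows of 300 bases (grey bars) by the number of CpG sites they hold. Red lines mark the richest window of each of the 8 genes with its mean TPM, from Tet1 with 17 sites to Usp7 with 63, and Dnmt1 and Uhrf1 share a count of 33.

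Words of the E2F type, bound by the factors that drive S-phase genes, were then searched in the 13 windows on both strands (TTTCCCGC, TTTGGCGC, TTTCGCGC and TTTGCCGC). They occurred in 2 of the 13 windows, compared with 2.26% of all windows. Each word holds a CpG site, and the richest windows of the 8 genes held 17 to 63, against a median of 7 over all single windows. The share over all windows was not matched for CpG sites. The printed window of Uhrf1 holds TTTCGCGC from base 66, and the window of Dnmt1 with 33 CpG sites (chr9:20952574-20952873, minus strand) holds TTTCGCGC on the opposite strand from base 32 and TTTGGCGC from base 284. These are matches of letters, and binding was not measured.

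The order of the levels was examined over all 28 pairs of the 8 genes. In 27 pairs the order was the same in both libraries, and in 23 the interval of the ratio excluded 1 in both. The order from highest to lowest was Dnmt1, Tet1, Uhrf2, Usp7, Dnmt3a, Uhrf1, Dnmt3b and Tet2 in replicate 1, and replicate 2 differed only by the exchange of Uhrf2 and Usp7. The pairs not separated beyond counting error in both libraries were neighbours or near neighbours: Tet1 with Usp7, Tet1 with Uhrf2, Usp7 with Uhrf2, Dnmt3a with Uhrf1, and Dnmt3b with Tet2. Dnmt3a and Uhrf1 were at a ratio of 1.44 in replicate 1 (1.15 to 1.83) and 1.01 in replicate 2 (0.679 to 1.54). For Uhrf2 against Usp7 the ratio was 1.05 (0.969 to 1.13) and 0.918 (0.786 to 1.07).

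The order within each set depended on the gene length by which reads are divided. The deposited TPM correspond to the summed length of all annotated exons of a gene, which for Uhrf2 is 8590 bases although its only annotated coding transcript has 3536. When the same reads were divided by the longest coding transcript instead, Uhrf2 had the highest level in both libraries (41.6 and 28.6 on the deposited TPM scale), above Dnmt1 (24.0 and 23.7). Dnmt1 was then 0.577 times Uhrf2 in replicate 1 (0.535 to 0.623) and 0.829 times in replicate 2 (0.719 to 0.956), against 1.12 (1.03 to 1.2) and 1.60 (1.39 to 1.85) with all exons. That Dnmt1 leads the 8 genes therefore does not hold under both lengths. In the lower set, Tet2 (0.802) was above Dnmt3b (0.560) in replicate 1 with the longest coding transcript, and 26 of 28 pairs kept 1 order in both libraries. With the longest coding transcript, the upper and the lower set kept the same members.

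The 6 ratios between partners kept their direction under each length. With the longest coding transcript, Tet1 was 23.3 and 16.8 times Tet2, Uhrf1 was 0.0614 and 0.0934 times Uhrf2, and Dnmt1 was 9.41 and 8.88 times Uhrf1. The ratio most sensitive to length was that of Dnmt1 to Dnmt3a. Dnmt3a has 16642 exonic bases in 18 annotated transcripts but a longest coding sequence of 2724 bases, and when reads were divided by coding length Dnmt1 was 1.53 times Dnmt3a in replicate 1 (1.38 to 1.70) and 2.07 times in replicate 2 (1.70 to 2.54). That division overstates genes with long untranslated regions, since reads from those regions stay in the count.

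**Figure D3:**
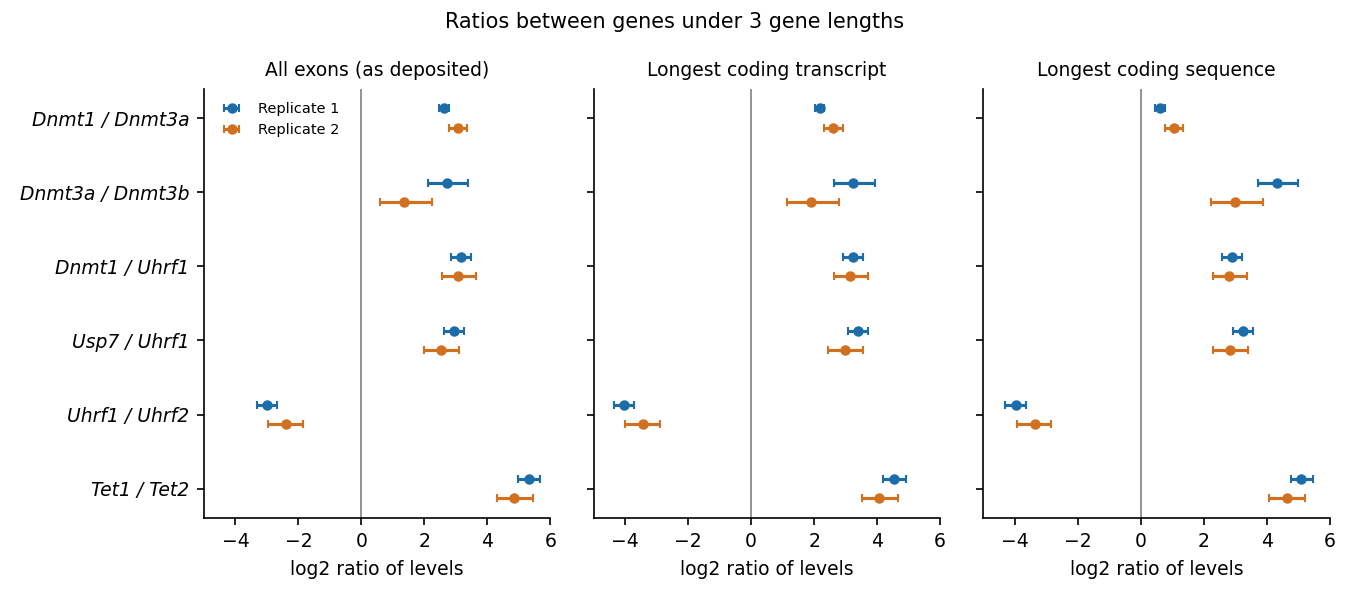
log2 ratios of levels for 6 pairs of genes when reads are divided by all exons (left), the longest coding transcript (middle) or the longest coding sequence (right). Points are the 2 libraries, bars are exact binomial 95% intervals and the grey line marks equal levels. Each pair stays on its side of the line, and Dnmt1 against Dnmt3a comes closest to it, at 1.53 and 2.07 times with coding length.

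Reads that fit several genes could lower a value, so the sequence that each gene shares with others was measured. Dnmt1, Dnmt3a, Uhrf2, Usp7, Tet1 and Tet2 had no window of 100 bases in their longest coding transcript that occurs in an annotated transcript of another gene, a property of 63.1% of coding genes. Uhrf1 shared 7.05% of its windows, all with the processed pseudogene Gm5648 on the X chromosome, and Dnmt3b shared 5.71%, all with Dnmt3c, a rodent paralogue active in male germ cells. At 50 bases the shares were 18.9% and 11.5%. Both genes belong to the lower set, and whether shared sequence lowered their values was not tested. Gm5648 and Dnmt3c were not analysed here. Uhrf1 and Uhrf2 shared no window of 50 bases, nor did Tet1 and Tet2. Exonic overlap with other genes was limited to 133 bases of Dnmt3a (0.799%) with Dnmt3aos and 43 bases of Tet2 (0.255%) with Gm42567, both on the opposite strand.

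The replicates were then compared gene by gene. None of the 8 genes differed more than 2-fold on the log2(TPM + 1) scale, compared with 10.2% of all genes. In replicate 2, 5 were lower and 3 higher, and 53.5% of the 15301 genes with reads in both libraries were lower. In 4 genes the ratio of replicate 2 to replicate 1 had an interval below 1: 0.687 for Uhrf2 (0.609 to 0.775), 0.731 for Dnmt3a (0.596 to 0.891), 0.784 for Usp7 (0.693 to 0.886) and 0.821 for Tet1 (0.755 to 0.892). These 4 differences exceeded counting error, and the intervals stayed below 1 when the libraries were rescaled by the median ratio over genes (0.968). The share of all genes with such an interval was not obtained, so the count of 4 is not read as particular to the 8 genes. Among genes with reads in both libraries and a total within 1.5 times that of Uhrf2, 5.79% of 1365 differed more than Uhrf2, and the same share was 20.1% for Tet1, 22.5% for Usp7 and 23.9% for Dnmt3a. Dnmt1 (0.987, 0.886 to 1.10) and Uhrf1 (1.05, 0.675 to 1.58) were the most alike between the libraries, whereas Dnmt3b was at 1.85 (0.900 to 3.71) and Tet2 at 1.14 (0.706 to 1.79). Macrophage markers were lower in replicate 2 as well (sums of 19.4 and 9.53 TPM), and their part in these differences was not tested.

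**Figure D4:**
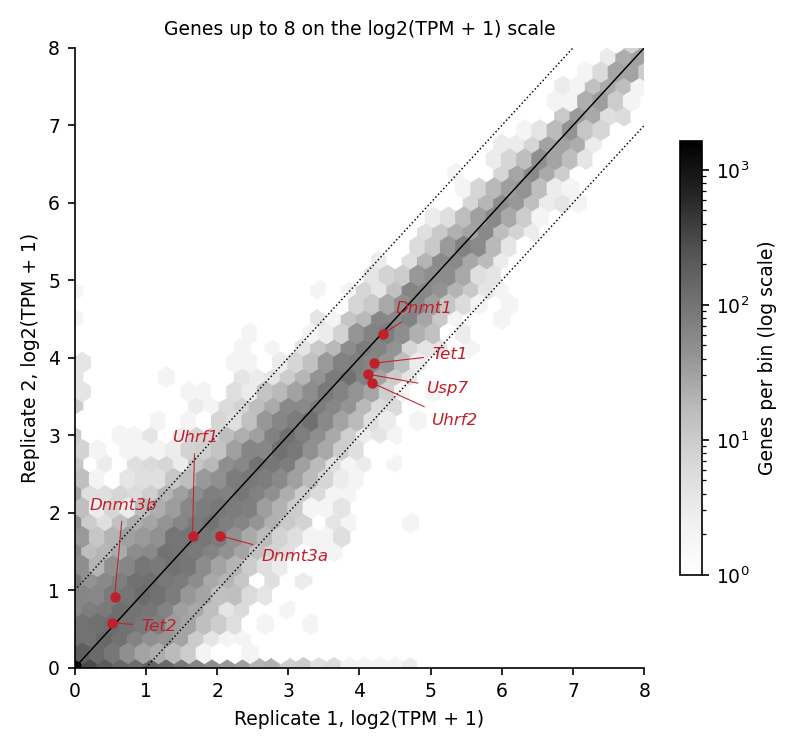
log2(TPM + 1) in replicate 1 (x axis) and replicate 2 (y axis) for all genes in the range shown (grey, genes per bin on a log scale) and the 8 genes (red). The solid line marks equality and the dotted lines a 2-fold difference, and all 8 genes lie between the dotted lines.

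Partners of the methyltransferases were examined next, from a fixed list of 13 genes of which 11 were in the table. At 1 TPM or more in each library were 10 of them, compared with 60.0% of all genes. On the log2(TPM + 1) scale the list median was 4.26 in replicate 1 and 4.20 in replicate 2. Over all genes it was 1.89 and 1.85. Pcna, the replication clamp to which Dnmt1 binds, was highest at 542 and 465 TPM. The DNA ligase Lig1, whose methylated form recruits Uhrf1, was at 73.5 and 79.3 TPM, and the repressor Trim28 at 68.6 and 61.1 TPM. Hells, a remodeler required for methylation of repeats, was at 52.2 and 51.8 TPM. Hells and Lig1 were thus well above Uhrf1 on the deposited scale. Hells was 24.3 times Uhrf1 in replicate 1 (19.6 to 30.4) and 23.0 times in replicate 2 (16.2 to 33.8). Lig1 was 34.2 times Uhrf1 (27.6 to 42.8) and 35.3 times (24.8 to 51.8). Pcna was 252 and 207 times Uhrf1, although 17.8% of its own windows of 100 bases occur in other genes. The lowest were the H3K9 methyltransferases Ehmt1 (2.62 and 3.83 TPM) and Ehmt2 (1.05 and 1.69 TPM) and the imprint-protecting zinc finger gene Zfp57 (0.167 and 0.0790 TPM, from 6 and 1 reads). Dnmt3l, the cofactor of the de novo enzymes, was not analysed here.

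Of the factors known to act against methylation in PGCs, all 3 were at 1 TPM or more in each library, as were 60.0% of all genes. Dppa3, which encodes a protein that binds Uhrf1 and displaces it from chromatin, was at 5013 and 5075 TPM, a level 2333 times that of Uhrf1 in replicate 1 (1891 to 2913) and 2258 times in replicate 2 (1599 to 3303). Prdm14, a repressor of the de novo methyltransferase genes, was at 15.3 and 14 TPM, and Prdm1, the specification factor Blimp1, at 7.84 and 6.11 TPM. Prdm14 was therefore in the range of the upper set, and Prdm1 between the sets.

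Genes of demethylation and base excision repair showed a wide range. The table held 9 of 12 listed genes, and 8 of them were at 1 TPM or more in each library, compared with 60.0% of all genes. The list median was 3.03 in each library on the log2(TPM + 1) scale. Apex1, the AP endonuclease, was at 411 and 376 TPM (59.7% of its windows of 100 bases occur in other genes, which makes its level uncertain), the strand-break sensor Parp1 at 52.6 and 40.5 TPM, and the stress-response gene Gadd45a at 36.4 and 20.5 TPM. The glycosylases were lower, with Smug1 at 3.25 and 4.09 TPM and Mbd4 at 3.55 and 1.81 TPM, and the deaminase gene Apobec1 was at 0.779 and 1.33 TPM from 20 and 12 reads. The thymine glycosylase gene Tdg, which acts on the products of the Tet enzymes, was not analysed here.

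Readers of methylated CpG were the lowest of the 6 lists by median, at 2.13 and 2.19, yet above the median of all genes (1.89 and 1.85). The table held 6 of 7 listed genes, and 4 of them were at 1 TPM or more in each library, compared with 60.0% of all genes. Mbd3, a subunit of the NuRD complex that binds methylated DNA poorly, was highest at 29.4 and 22.9 TPM. Mbd2 was at 5.47 and 6.24, Zbtb33 (Kaiso) at 3.84 and 5.61 and Mbd1 at 2.97 and 2.17 TPM. Zbtb38 was below 1 TPM in both libraries (0.977 and 0.408 TPM).

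All 5 enzymes that supply the methyl donor S-adenosylmethionine or clear its product were at 1 TPM or more in each library, as were 60.0% of all genes. The list medians were 4.72 and 4.93. Mat2a, which makes the donor, was at 29.2 and 32.1 TPM, its regulatory subunit Mat2b at 25.4 and 29.4 TPM, and Ahcy, which removes S-adenosylhomocysteine, at 19.6 and 20.5 TPM (uncertain, with 72.1% of its windows shared). Of the folate enzymes, Mthfd1 was the highest of the list at 40.0 and 38.2 TPM, and Mtr was at 21.5 and 16.8 TPM. Every value of this list lay within or above the range of the upper set.

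Germline genes whose promoters are methylated in somatic cells were expressed in part. At 1 TPM or more in each library were 8 of 10 genes, compared with 60.0% of all genes, and the list medians were 3.91 and 4.12. The RNA-binding gene Dazl was highest (127 and 114 TPM), followed by the synaptonemal gene Sycp3 (118 and 96.5 TPM, uncertain, with 43.4% of its windows shared) and the carrier gene Slc25a31 (63.0 and 40.8 TPM). Taf7l (0.422 and 0.133 TPM), Tex101 (2.41 and 0.722 TPM) and Brdt (3.0 and 1.87 TPM) were lowest. The only gene of the 6 lists to differ more than 2-fold between the replicates on the log2(TPM + 1) scale was Mael, a piRNA pathway gene named here after its values were seen, at 6.07 TPM (100 reads) and 17.1 TPM (99 reads). DNA methylation was not measured in these files, so expression here says nothing of the promoters' state.

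**Figure D5:**
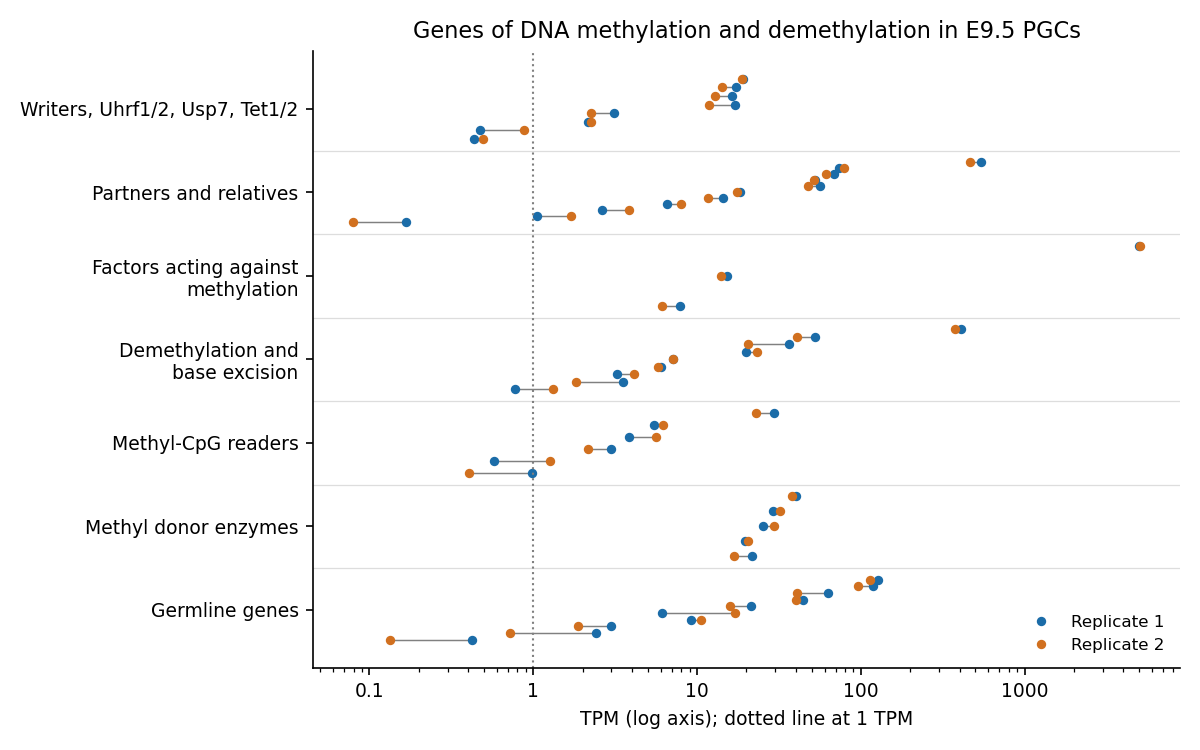
TPM (log axis) of the 8 genes and of the genes of 6 fixed lists in the table. Points are the 2 libraries, a grey line joins the values of 1 gene and the dotted line marks 1 TPM. Dppa3, at 5013 and 5075 TPM, is the highest point.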

How the data were processed

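RNA-seq reads of both libraries were aligned by the authors to mm10 with Hisat2 and counted per gene with featureCounts, and the deposited values are TPM. The methods use R 3.4.2 and DESeq2 for differential expression, which has no part here, and the processing notes also list Bowtie2 and RSEM without a role. Versions, strand and multi-mapping settings are not given in the sources used here. The table holds 18877 symbols and no columns of other samples. A single GENCODE M21 (GRCm38) gene was matched for 18748 symbols.

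TPM times exon length gave whole multiples of 1 amount per library, taken as 1 read. Of the low values (below 50 reads), 96.7% (replicate 1) and 95.8% (replicate 2) lay within 0.02 of a whole number. The deposited TPM thus matched M21 exon lengths. Levels were given as TPM or log2(TPM + 1), and ratios between genes without a pseudocount. Poisson and Clopper-Pearson binomial intervals (95%) cover counting error only, because PCR copies cannot be told from separate molecules here. It is not stated whether the replicates came from separate litters.

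All 8 genes were named. The values of 1 list gene are not reported here. Lists with more than 8 genes in the table gave their 3 highest and 3 lowest and the direct partners. The genes and lists were chosen with earlier results of these data known. Genes of like pattern were not sought, because 2 libraries of 1 group hold no pattern. Alternatives were a pseudocount, detection limits, gene lengths, rescaling and leaving out each replicate. Coding length was chosen after seeing the data. Python 3.11.15, numpy 2.4.6, pandas 2.3.3, scipy 1.17.1 and matplotlib 3.10.9 were used.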

Additional observations from a re-analysis of the deposited data

How the results depend on the processing

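For 23 results, 91 alternative values were obtained. Of these, 60 moved by no more than the spread between replicates (or, for counts, stayed within 1.5 times) and 31 moved further. Leaving out 1 of 2 replicates cannot move a mean further than that spread, so such values were among the 60 by construction. All 31 came from the other settings. None of the 6 ratios changed direction. Without replicate 1 or replicate 2 the log2 ratios were 2.63 to 3.06 for Dnmt1 to Dnmt3a, 1.37 to 2.71 for Dnmt3a to Dnmt3b, 3.07 to 3.15 for Dnmt1 to Uhrf1, -2.99 to -2.39 for Uhrf1 to Uhrf2, 2.51 to 2.93 for Usp7 to Uhrf1 and 4.84 to 5.31 for Tet1 to Tet2. Replicate 1 alone gave 6.54 times and replicate 2 alone 2.58 times for Dnmt3a to Dnmt3b. A pseudocount of 1 shrank the log2 ratios to 2.45 for Dnmt1 to Dnmt3a, 1.14 for Dnmt3a to Dnmt3b (from 2.04), 2.64 for Dnmt1 to Uhrf1, -2.25 for Uhrf1 to Uhrf2, 2.28 for Usp7 to Uhrf1 and 3.51 for Tet1 to Tet2. With the longest coding transcript as length they were 2.39, 2.58, 3.19, -3.72, 3.18 and 4.30 in the same order. With the longest coding sequence they were 0.83 for Dnmt1 to Dnmt3a, 3.66 for Dnmt3a to Dnmt3b, 2.85 for Dnmt1 to Uhrf1, -3.67 for Uhrf1 to Uhrf2 and 3.04 for Usp7 to Uhrf1. The median level of the 8 genes rose from 2.88 to 3.33 when TPM was rescaled over protein-coding genes. Restricting lists to a mean TPM of at least 1 gave medians of 4.95 for partners, 2.64 for readers and 4.33 for germline genes.

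The number of genes detected in both libraries was 6 at a TPM of at least 1 or 0.5 and 4 at a TPM of at least 5. No paired analysis was possible because the series holds 1 group. Depth limits Dnmt3b, with 15 reads in replicate 2, most, followed by Tet2 and Uhrf1.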
